A study of Homo sapiens with 24 samples.

Results

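The genes encoding the proteins of the human mitochondrial ribosome (mitoribosome) were followed across all 8 groups of the study. Members were the protein-coding genes of the deposited table whose symbol is MRPL or MRPS, a number and, where present, A or B. This rule found 77 genes among 19586 protein-coding genes and 60675 genes in all, of which 49 carry a large subunit symbol and 28 a small subunit symbol. They lie on 21 chromosomes. All 77 passed the filter on low counts in each of the 10 comparisons. MRPS18C, whose symbol ends in C, and mitoribosome proteins with other names were read as a separate list.

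SW1783, an established human astrocytoma cell line, was exposed for 24 h to extracts of Schisandrae Fructus, the fruit of Schisandra chinensis. Batch A held a vehicle group and the water extract (WESF), given at a low (20 µg/mL), a medium (100 µg/mL) or a high dose (500 µg/mL). Batch B held its own vehicle group and the ethanol extract (EESF), given at 12.4 µg/mL as the low, 62 µg/mL as the medium and 310 µg/mL as the high dose. The vehicle was 0.1% DMSO. Each group had 3 RNA-sequencing libraries of 18727797 to 32567395 expected counts. Batch A had 26447834 to 28461841 in vehicle and 20731749 to 24692309 under high WESF. Batch B had 18727797 to 20465712 in vehicle and 29659110 to 32567395 under high EESF. Depth thus moved with the high dose, in opposite directions in the batches. Whether the 3 libraries of a group came from separate cultures was not given in the sources used here. The p-values therefore measure the spread between these libraries, which may be technical. Comparisons were made within a batch, each treated group against the 3 vehicle libraries run with it, and extract and batch cannot be told apart. Doses of the same name differ in mass between the extracts. Per the study's methods, the high dose had been chosen as non-toxic for WESF and as partly toxic for EESF, so the high doses are not matched in toxicity. As the cells were harvested in bulk, fewer cells of a kind and less RNA per cell cannot be told apart.

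The mitoribosome translates the messenger RNAs encoded by mitochondrial DNA, all of which specify subunits of the oxidative phosphorylation (OXPHOS) complexes. Its ribosomal RNAs are transcribed from mitochondrial DNA, whereas its proteins are encoded in the nucleus, made in the cytosol and imported. The small subunit binds the messenger RNA and reads the codons. The large subunit joins amino acids and releases the chain next to the inner membrane. Part of the proteins descend from the bacterial ribosome and the others were gained in mitochondria, and inherited defects of several of them cause combined OXPHOS deficiency. By textbook assignment, 45 members take the place of a bacterial protein and are called bacterial homologues here, and 31 are specific to mitochondria. MRPS18A and MRPS18B are related in sequence to bacterial S18 but sit at other sites, and were counted among the 31. MRPS36 is now known as a component of the 2-oxoglutarate dehydrogenase complex, and MRPS30 and MRPS18A sit in the large subunit despite their symbols. The members were kept under their symbols here.

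Markers of the labelled cell type were read first. Of 11 astrocyte genes, 5 reached 1 CPM in a library (CPM, the count scaled to the library's total), led by VIM (mean 4900), while GFAP, S100B, AQP4, ALDH1L1, SLC1A2 and SOX2 stayed under 1 CPM in all 24 libraries. All 5 genes of a fibroblast list were present, led by COL1A1 (mean 3630 CPM). Of 5 neuronal genes 3 reached 1 CPM (TUBB3, mean 98.9, SNAP25 and SYT1) and RBFOX3 and STMN2 did not, and of 5 epithelial genes 2 did (KRT18, mean 106, and KRT8) and EPCAM, CDH1 and KRT5 did not.

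The vehicle libraries of a batch differed among themselves in a direction that most of these genes shared. In batch A, 69 of the 77 members were above the vehicle mean in replicate 1, 41 in replicate 2 and 8 in replicate 3. In batch B, 65, 40 and 12 members were above it in replicates 1, 2 and 3. The median member deviated by 0.06 and -0.07 (log2 CPM) in replicates 1 and 3 of batch A and by 0.08 and -0.07 in those of batch B. Cytosolic ribosomal protein genes moved with them, with medians of 0.12 and -0.11 in replicates 1 and 3 of either batch. The median over all genes tested was 0.00 in each of these libraries. The scaling of the libraries keeps this median near 0.00 by construction, here and in the comparisons below. The vehicle groups therefore carried a common spread of about the size of many single changes below, and its part in those changes was not tested.

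**Figure D1:**
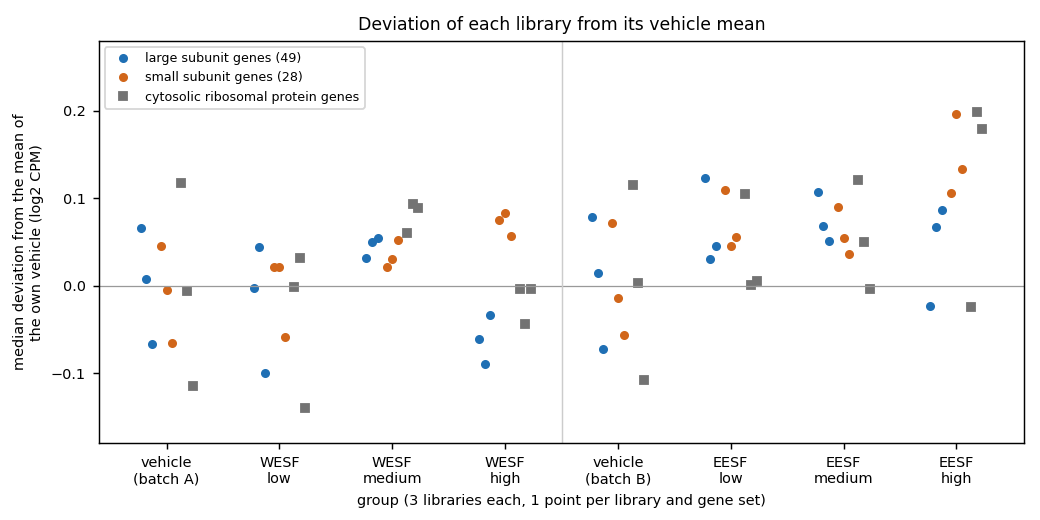
Median deviation of each library (1 point per library and gene set) from the mean of its own vehicle group, in log2 CPM, for 49 large subunit genes, 28 small subunit genes and the cytosolic ribosomal protein genes in the 8 groups. The vehicle libraries spread from 0.07 to -0.07 in batch A and 0.08 to -0.07 in batch B for the large subunit and from 0.05 to -0.07 and 0.07 to -0.06 for the small subunit, and under high WESF the large subunit medians were below 0 and the small subunit medians above 0.

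Levels between genes were compared as TPM, transcript abundance scaled to the library's total, which divides by gene length. Over the 6 vehicle libraries the members spanned 4.49 to 209 TPM with a median of 47.7. The median was 51.0 TPM for large subunit genes and 34.7 for small subunit genes, beside 15.8 for all genes tested, 16.4 for the mitochondrial aminoacyl-tRNA synthetases, which charge the tRNAs of this ribosome, and 346 for cytosolic ribosomal protein genes. The highest levels were those of MRPL37 (209 ± 9.29 TPM, SD, n = 6), MRPL51 (196 ± 16), MRPL12 (187), MRPS18B (154) and MRPL41 (146). The lowest were those of MRPS22 (4.49 TPM), MRPL23 (5.35), MRPL46 (5.62), MRPS25 (6.69) and MRPS5 (8.40). Mitoribosomes hold nearly all of these proteins in equal copy number, and the RNA levels of the members differed by up to 46.6-fold. Neighbours in the order were rarely separated, since 71 of 76 neighbouring pairs had overlapping ranges over the vehicle libraries. With the longest transcript as the length, 4 of the 5 highest and 4 of the 5 lowest were the same genes. The levels themselves differed with that length, at 8.71 TPM for MRPS22, 13.4 for MRPL23 and 11.7 for MRPS25, and MRPL46 was then the lowest at 5.03.

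**Figure D2:**
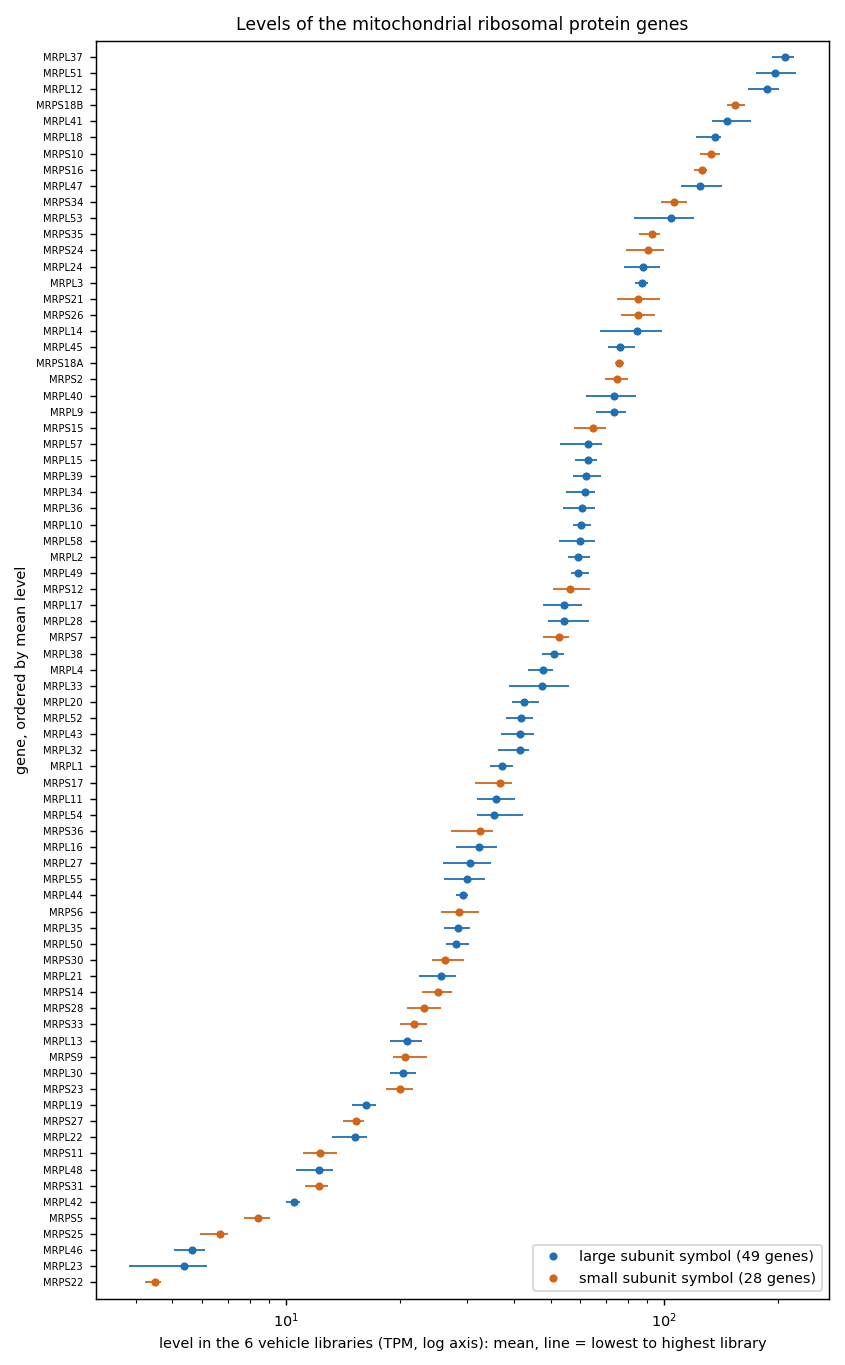
Level of each of the 77 genes in the 6 vehicle libraries, in TPM on a log axis, ordered by the mean (point) with a line from the lowest to the highest library. Large and small subunit genes are mixed over the whole order, from MRPS22 at 4.49 to MRPL37 at 209 TPM.

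High-dose WESF moved these genes in both directions. A gene was called when its adjusted p was under 0.05 in edgeR's quasi-likelihood test, and a differentially expressed gene (DEG) had in addition a fold change beyond 1.5. Of the 77 members, 22 rose and 26 fell, and of all 13129 genes tested 34.3% rose and 34.6% fell, so neither share was above the background. The median change was -0.01 on the log2 scale beside 0.00 over all genes. Only 5 members were DEGs, with MRPL2 and MRPL55 rising and MRPL1, MRPL57 and MRPS14 falling, beside 11.1% of all genes rising and 13.0% falling as DEGs. The large subunit had 11 rises and 18 falls (median -0.06) and the small subunit 11 rises and 8 falls (median 0.09). With MRPS30 and MRPS18A counted in the large subunit, the medians were -0.06 and 0.12.

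MRPL2, the homologue of the bacterial L2 protein at the peptidyl transferase centre, had the largest rise. It lies on chromosome 6 (GRCh38 chr6:43054029-43059438, minus strand). Its CPM was 38.6, 39.5 and 34.9 in the vehicle libraries and 76.4, 70.3 and 74.1 under high WESF. The lowest treated library was far above the highest vehicle library. The change was 0.97 ± 0.05 (log2, SE, adjusted p = 1.07e-10), a 1.95-fold increase. It stood at 33.7 to 37.4 CPM under low WESF and at 39.0 to 41.1 under medium WESF, so the increase was seen at the high dose. MRPL2 shares 126 exon bases with KLC4 on the opposite strand, and KLC4 changed by 1.23 under high WESF (adjusted p = 4.43e-10) and 0.90 under high EESF (adjusted p = 2.08e-06). The strand setting of the counting was not given in the sources used here, and the part of shared reads was not tested.

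MRPL55, the homologue of bacterial L31, is encoded on chromosome 1 (chr1:228106679-228109312, minus strand). It stood at 18.2, 17.1 and 16.6 CPM in the vehicle libraries and at 26.8, 27.9 and 26.7 under high WESF, with no overlap. The log2 change was 0.64 ± 0.06 (adjusted p = 5.75e-08). MRPL18, in the central protuberance of the large subunit, and MRPL10, which anchors the stalk that recruits translation factors, followed at 0.50 each. Further rises were those of MRPL44 (0.45), a large subunit protein with a ribonuclease III-like fold whose loss causes cardiomyopathy, and, in the small subunit, of MRPS5 (0.34), MRPS18B (0.31), MRPS31 (0.29) and MRPS12 (0.26). MRPS5 and MRPS12 have bacterial homologues close to the decoding site. Reads of MRPS31 are the least certain of these, since copies named as its pseudogenes held 28.1% of the counts of the gene and copies together. The other members had at most 0.5% there.

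The falls were led by MRPL1, the homologue of the bacterial L1 protein on the stalk where spent tRNA leaves (chr4:77862830-77952785, plus strand). Its CPM went from 17.5, 18.6 and 17.6 in the vehicle libraries to 10.7, 10.1 and 8.80 under high WESF. All treated libraries were well below all vehicle libraries, and the log2 change was -0.86 ± 0.08 (adjusted p = 4.23e-08). MRPS14, the homologue of bacterial S14 in the head of the small subunit (chr1:175010789-175023425, minus strand), stood at 19.6, 19.4 and 20.3 CPM and then at 13.6, 11.4 and 11.7. Its log2 change was -0.69 ± 0.07, again without overlap. MRPL57, specific to mitochondria (chr13:21176658-21179084, plus strand), stood at 44.3, 42.6 and 38.9 CPM in the vehicle libraries and 28.6, 23.0 and 27.5 under high WESF. Its log2 change was -0.67 ± 0.07, and the groups were separate. MRPS14 shares 387 exon bases with CACYBP on the opposite strand, which was not called (0.05).

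Smaller falls included MRPL40 (-0.54), whose gene lies in the region lost in DiGeorge syndrome, MRPL53 (-0.51), MRPL11 (-0.49) at the base of the stalk, MRPL20 (-0.46) and MRPL16 (-0.40). In the small subunit MRPS11 (-0.38), MRPS7 (-0.37) and MRPS28 (-0.33) fell. MRPL40 was at 32.1, 28.9 and 27.1 CPM in the vehicle libraries and at 20.2, 20.2 and 20.3 under high WESF, so the treated libraries were almost identical. MRPS7 stood at 52.9, 52.5 and 52.9 CPM and then at 40.1, 41.4 and 41.3, with a tight spread in either group. MRPL20, MRPL11, MRPL53, MRPS11 and MRPS7 also share exon bases with another annotated gene, of which PELI3, beside MRPL11, fell (-0.77) and MIF4GD, beside MRPS7, rose (0.66).

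**Figure D3:**
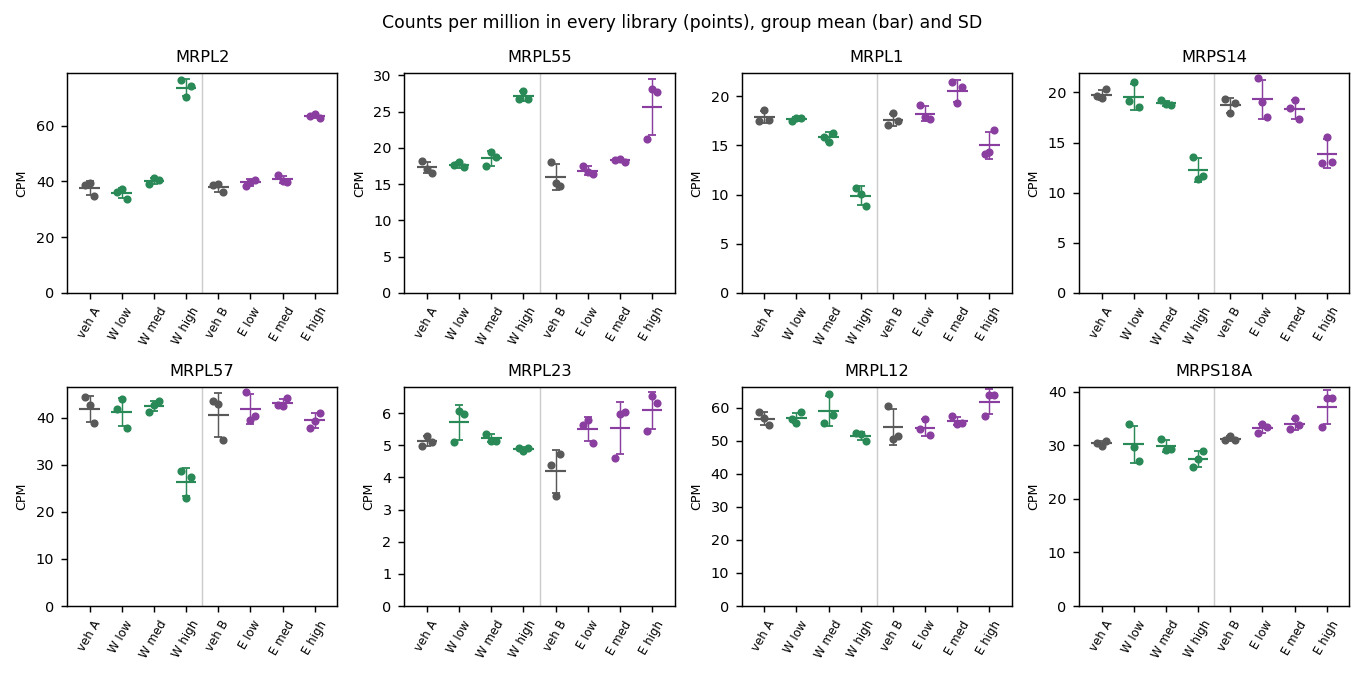
CPM of 8 genes in each of the 24 libraries (points), with the group mean (bar) and SD, for vehicle (veh), WESF (W) and EESF (E) in batches A and B, on axes that start at 0. MRPL2 and MRPL55 stood higher at the high dose of both extracts, MRPL1 and MRPS14 lower at the high dose of both, and MRPL57 was at 23.0 to 28.6 CPM under high WESF but at 37.9 to 41.0 under high EESF.

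High-dose EESF moved the members mainly upward. There, 28 members rose and 4 fell, beside 29.3% and 28.7% of all 13092 genes tested. The share of members that rose (36.4%) was close above this background and the share that fell (5.19%) was below it. MRPL2 and MRPL55 were the 2 DEGs, both higher, beside 8.21% of all genes as higher DEGs and 9.17% as lower DEGs. The median change was 0.09 on the log2 scale, beside 0.01 over all genes tested, which the scaling of the libraries keeps small. The large subunit had 16 rises and 3 falls (median 0.03) and the small subunit 12 rises and 1 fall (median 0.13).

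Gene length moved with this result. The members are short, with a median exon length of 2539 bases against 5370 over all genes tested, and across all genes the change under high EESF had a Spearman rho of -0.25 with length (n = 13092 genes, which share the same libraries). Among the 2526 genes with lengths in the members' interquartile range (1628 to 3358 bases), the median change was 0.12, with 38.2% called higher and 17.3% called lower. The 39 members within that range had a median of 0.05, with 13 called higher and 2 lower. Under high WESF the rho with length was -0.02. The part of length in the members' changes was not tested.

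MRPL2 was again first, at 38.7, 39.0 and 36.0 CPM in the vehicle libraries of batch B and 63.6, 64.1 and 62.6 under high EESF. The groups were far apart, and the log2 change was 0.74 ± 0.06 (adjusted p = 4.49e-07). MRPL55 stood at 18, 15.2 and 14.7 CPM and then at 21.2, 28.1 and 27.7, so replicate 1 of the treated group was nearer to the vehicle. Its log2 change was 0.68 ± 0.11. The same replicate was the lowest of its group in MRPL12, MRPL23, MRPL41, MRPS12, MRPS18A and MRPS18B, and its median over cytosolic ribosomal protein genes was -0.02 against 0.20 and 0.18 in replicates 2 and 3. Without it, 33 members rose.

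MRPL23, the homologue of bacterial L23 at the exit of the peptide tunnel, changed by 0.55 and was among the weakest members in level. Its CPM was 4.38, 3.43 and 4.74 in the vehicle libraries of batch B and 5.44, 6.52 and 6.31 under high EESF. It stood at 4.98 to 5.28 in the vehicle libraries of batch A, and its change between high and low EESF was 0.15 (adjusted p = 0.263). The vehicle libraries of batch B were thus the low group for this gene. All 24 of its values are not whole numbers. Whether part of its reads were shared out between genes was not tested.

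Further rises under high EESF were those of MRPS18B (0.52), MRPS12 (0.49), MRPL10 (0.48), MRPL17 (0.47), MRPL4 (0.47), MRPS26 (0.46) and MRPS5 (0.45). MRPS18B, a small subunit protein related in sequence to bacterial S18, stood at 86.6, 79.9 and 76.5 CPM in the vehicle libraries and 111, 118 and 120 under high EESF, with no overlap. The falls were those of MRPS14 (-0.42), MRPL40 (-0.28), MRPL1 (-0.23) and MRPL19 (-0.18). MRPS14 went from 19.3, 17.9 and 18.9 CPM to 13.0, 15.6 and 13.1, below the vehicle in each library. The calls of the other 3 falls were lost when 1 library was left out. MRPL40 was no longer called without vehicle replicate 1 (adjusted p = 0.071) or 2 (0.0637). MRPL1 was not called without vehicle replicate 2 (0.0896) or 3 (0.0562) or treated replicate 1 (0.0644) or 2 (0.0944), and MRPL19 was not called without vehicle replicate 3 (0.0946) or treated replicate 2 (0.0618) or 3 (0.0889).

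The high doses were then set side by side, each against its own vehicle. In both extracts 19 members rose, including MRPL2, MRPL55, MRPL10, MRPL18, MRPL44, MRPS5, MRPS12 and MRPS18B, and 3 fell (MRPL1, MRPL40 and MRPS14). These were 24.7% and 3.90% of the members, beside 22.5% and 23% of the 13002 genes tested in both, so the shared rises were near the share of all genes. A further 21 (27.3%) fell under WESF and were not called under EESF, beside 11% of all genes. Another 7 (9.09%) rose under EESF and were not called under WESF, beside 6.24% of all genes. MRPS10, MRPS25 and MRPS35 (3.90%) rose under WESF and were not called under EESF, beside 11% of all genes. MRPL19 fell under EESF and was not called under WESF (1.3% of the members, beside 4.76% of all genes). MRPL12 and MRPS18A (2.6%) were called lower under WESF and higher under EESF, beside 0.631% of all genes. The remaining 21 (27.3%) were not called in either, beside 20% of all genes. A call in 1 extract and not in the other does not show that they differ, so the difference itself was tested.

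The difference between the EESF change and the WESF change passed the test in 20 members. It was positive (EESF above WESF) in 18 and negative in 2, MRPL19 (-0.25) and MRPL2 (-0.22), beside 12.7% of all 13376 genes tested with a positive and 13.3% with a negative call. Changes beyond 1.5-fold were found for MRPL1, MRPL57 and MRPL23, all positive, beside 2.13% of all genes positive and 1.75% negative. The median difference over the members was 0.15, the same in either subunit, with 64 of 77 members positive, beside 0.02 over all genes. Length moved with this result too. The difference had a rho of -0.31 with gene length across all genes, and the 2609 genes of the members' length range had a median of 0.13, with 68.6% positive, 19.2% called positive and 4.68% called negative. The 39 members in that range had a median of 0.14, with 11 called positive and 1 negative. The median of these members was thus close to that of genes of their length, and whether the members differ from those genes was not tested. The vehicle groups also differed, with a median of -0.04 for batch B against batch A and 60 of 77 members lower in batch B, although no member was called there.

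Of the 18 positive differences, 10 joined a fall under WESF to no call under EESF. They included MRPL57 (-0.67 and -0.04, difference 0.63 ± 0.12, adjusted p = 0.00154), MRPS11 (difference 0.48), MRPL20 (0.47), MRPS33 (0.40), MRPL16 (0.39) and MRPL11 (0.35). MRPL57 stood at 43.5, 43.0 and 35.2 CPM in the vehicle libraries of batch B and at 37.9, 39.4 and 41.0 under high EESF, within the vehicle range, whereas under high WESF it was below its vehicle in each library. MRPL1 fell under both extracts, by 0.86 and 0.23, and its difference was 0.63 ± 0.11 (adjusted p = 0.00111). MRPL23, MRPL38 (difference 0.42) and MRPL41 (0.35) rose under EESF and were not called under WESF. MRPL4 (0.33) and MRPS18B (0.22) rose under both and more under EESF. The difference for MRPL11 was not called without treated WESF replicate 3 (adjusted p = 0.0532), and the count of positive differences was 12 without that library and 26 without treated EESF replicate 1. The negative calls of MRPL2 and MRPL19 were fewer without 11 of the 12 libraries, down to 0.

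MRPL12 and MRPS18A had calls of opposite sign. MRPL12, the stalk protein that contacts translation factors and has been described to bind the mitochondrial RNA polymerase, was at 58.8, 56.8 and 54.7 CPM in the vehicle libraries of batch A and 52.4, 52.1 and 50.1 under high WESF. In batch B it was at 60.5, 50.7 and 51.4 and then at 57.4, 64.0 and 64.0, where the groups overlapped. Its changes were -0.14 and 0.19, and their difference was 0.33 ± 0.09 (adjusted p = 0.0137). The rise under EESF was not called without vehicle replicate 2 (0.219) or 3 (0.158) or treated replicate 2 (0.147) or 3 (0.127), and the fall under WESF was not called without treated replicate 3 (0.0749). MRPS18A, at 30.5, 29.9 and 30.7 CPM in vehicle and 26.0, 27.4 and 29.0 under high WESF, was at 31.0, 31.7 and 31.0 and then 33.4, 38.9 and 38.9 in batch B. Its treated libraries were below the vehicle under WESF and above it under EESF, with a difference of 0.39 ± 0.09 (adjusted p = 0.00462). Its fall was not called without vehicle replicate 2 (0.0536) or 3 (0.0669) or treated replicate 1 (0.13) or 2 (0.0744), and its rise was not called without treated replicate 2 (0.0508).

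**Figure D4:**
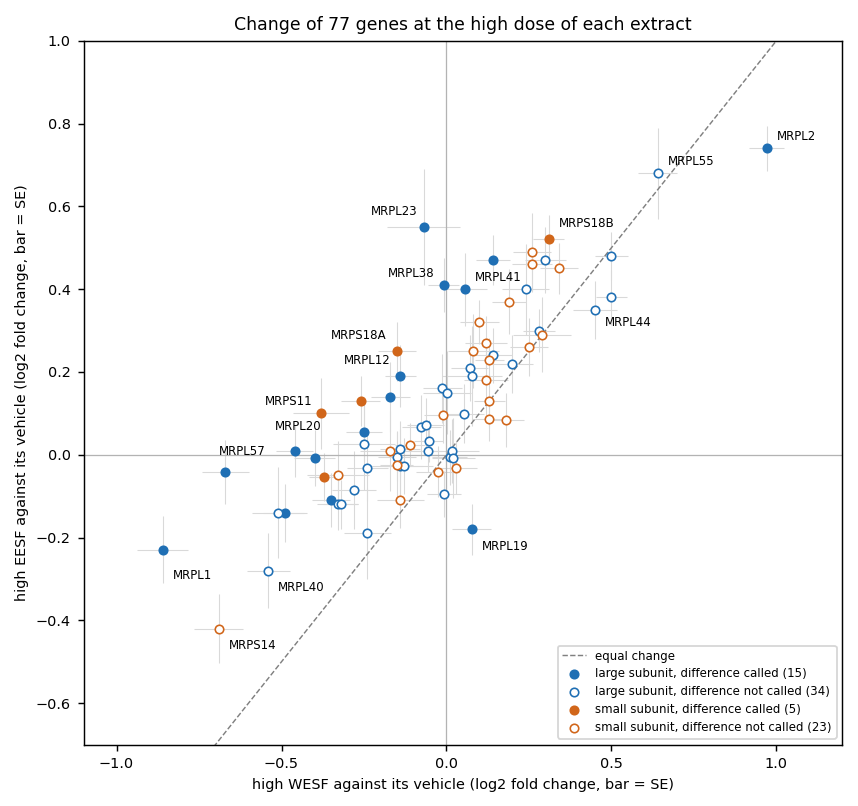
Log2 fold change of the 77 genes at high WESF (horizontal axis) and at high EESF (vertical axis), each against its own vehicle, with SE bars and colours for the subunit. Filled points mark the 20 genes whose difference between the extracts was called, of which 18 lie above the dashed line of equal change.

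Several members known from inherited disease or from a special role were not called at the high doses. They were MRPL3, MRPS22 and MRPS30, with log2 changes from -0.05 to 0.03 under either extract. The same held for MRPL58, which releases chains from stalled mitoribosomes (0.00 under WESF and 0.15 under EESF). MRPS16 fell slightly under WESF (-0.11) and was not called under EESF (0.02). MRPS34 (0.19 and 0.37) and MRPS27 (0.13 and 0.23), a protein of the pentatricopeptide repeat family, rose under WESF and EESF. The small WESF changes of MRPS16 and MRPS27 were each lost when any of 4 and 3 libraries, respectively, was left out (adjusted p up to 0.183 and 0.0718). Exon bases were shared with a gene on the opposite strand by MRPS22 (COPB2, 6378 bases), MRPS27 (PTCD2, 276 bases) and MRPS34 (EME2, 341 bases), and those genes changed by 0.53, 0.31 and -0.90 under high WESF and by 0.23, 0.12 and -0.31 under high EESF, where PTCD2 was not called. In all, 25 members shared exon bases with another gene tested, which was called for 19 of them under high WESF and 16 under high EESF. MRPL41, which was described to promote apoptosis, rose under high EESF (0.40) and stood at 26.7, 26.0 and 26.5 CPM under high WESF, between the vehicle libraries at 28.4, 23.7 and 24.2.

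The lower doses moved few members. Medium WESF called 1 member higher and none lower, beside 1.89% of 13112 genes higher and 2.20% lower. This was MRPL41 (0.27 ± 0.07, adjusted p = 0.0414), at 31.8, 29.8 and 30.4 CPM against 28.4, 23.7 and 24.2. It was called without vehicle replicate 1, when 7 members were, and not without any of the other 5 libraries (adjusted p 0.105 to 0.194). Low WESF called 0 of the 77 members, beside 0% of all 13131 genes in either direction. At an unadjusted p under 0.05 there were 4 members and 470 genes, and DESeq2 also called 0 members.

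Medium EESF called 6 members higher and none lower, beside 6.90% of 12978 genes higher and 8.48% lower. They were MRPL4 and MRPL1 (0.23 each), MRPL49 and MRPS33 (0.21), MRPL38 (0.19) and MRPS18B (0.18). MRPL4 lines the peptide tunnel. MRPL1 stood at 17.1, 18.3 and 17.5 CPM in the vehicle libraries, at 21.5, 19.3 and 20.9 under medium EESF and at 14.1, 14.3 and 16.6 under high EESF. It was thus above the vehicle at the medium dose and below it at the high dose. Its medium-dose call was lost in 9 of 14 alternative settings, among them leaving out any of 5 of the 6 libraries (adjusted p up to 0.117). The number of calls was 10 without vehicle replicate 1, 2 without vehicle replicate 2 or 3 or treated replicate 3, and 1 without treated replicate 2. Low EESF called 0 members, beside 3.11% of 12892 genes higher and 6.24% lower. At an unadjusted p under 0.05 there were 13 members and 3393 genes, DESeq2 called 0 members, and 8 were called higher without vehicle replicate 1.

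The members nevertheless leaned upward at these EESF doses. At the medium dose 67 of 77 had a positive change (median 0.07) and at the low dose 61 (median 0.06), both against the same 3 vehicle libraries. Genes of the members' length range leaned in the same direction, with a median of 0.09 and 76.4% positive at the medium dose, and a median of 0.07 and 73.9% positive at the low dose.

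**Figure D5:**
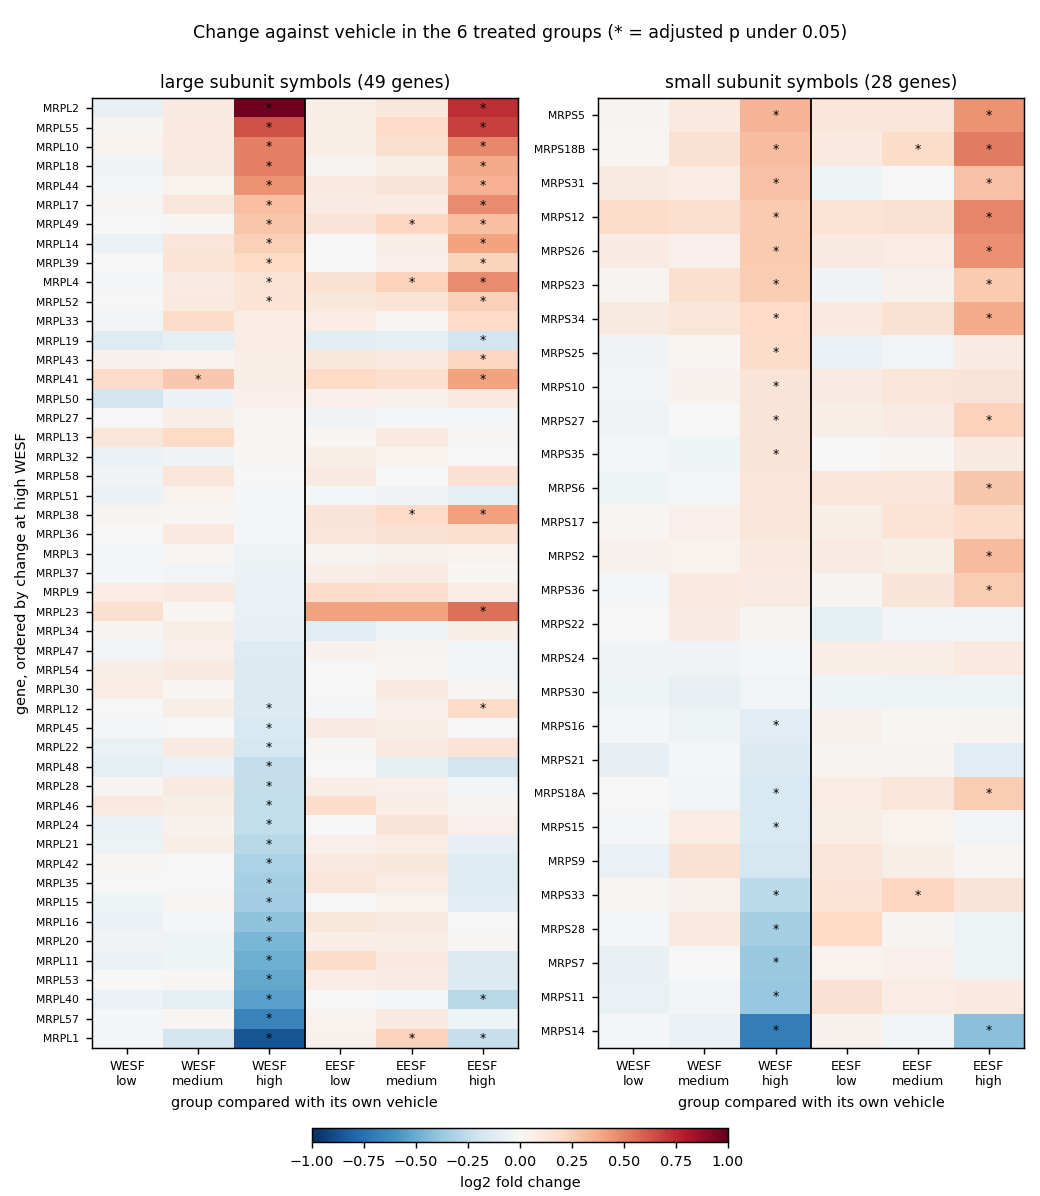
Log2 fold change against the own vehicle for the 49 large subunit (left) and 28 small subunit genes (right) in the 6 treated groups, ordered by the change at high WESF, with a star where the adjusted p was under 0.05. Stars gather in the high-dose columns, and at the lower doses 1 gene is marked under WESF and 6 under EESF.

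High and low doses of the same extract were also compared directly, which leaves the vehicle libraries out. Between high and low WESF 21 members rose and 22 fell, beside 34.1% of all 13100 genes in each direction, with MRPL2 at 1.04, MRPL55 at 0.62, MRPL1 at -0.84, MRPS14 at -0.68 and MRPL57 at -0.64. Between high and low EESF 24 rose and 8 fell, beside 28.7% and 28.4% of 13197 genes, with MRPL2 at 0.68, MRPL55 at 0.61, MRPS14 at -0.47 and MRPL1 at -0.28. The 2 vehicle groups showed 0 called members, beside 0% of 13001 genes in each direction, with 3 members and 371 genes at an unadjusted p under 0.05. DESeq2 called 0 members there as well.

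The summed RNA of the members was read in each group. The sum was 2962 ± 126 CPM (SD, n = 3) in vehicle and 3000 ± 33.7 under high WESF, and 2897 ± 132 and 3211 ± 107 under vehicle and high EESF. The ratio of the large to the small subunit sums was 1.57 ± 0.02 in the vehicle of batch A and 1.52 ± 0.02 under high WESF. The vehicle libraries stood at 1.586, 1.572 and 1.548 and the treated libraries at 1.534, 1.503 and 1.536, all below the vehicle. In batch B the ratio was 1.542, 1.569 and 1.515 in vehicle and 1.462, 1.503 and 1.521 under high EESF, and these groups overlapped. Bacterial homologues had 10 rises and 17 falls under high WESF (median -0.07) and proteins specific to mitochondria 12 and 9 (median 0.03), beside 34.3% of all genes rising and 34.6% falling. Under high EESF the counts were 13 and 3 (median 0.05) and 14 and 1 (median 0.13), beside 29.3% and 28.7%.

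The promoters were searched for 4 motifs, none of which was in most of them. RefSeq sequences (GRCh38.p14) of 300 bases, from 250 before to 50 after a start site, were matched by symbol for 68 of the 77 members with 84 entries. Both strands were searched. CCGGAAG, the core bound by ETS factors such as GABPA, was in 38.1% of the members' promoters and 10.3% of all 35116. AAGATGGC, part of the YY1 element, was in 27.4% and 2.89%. The NRF1 element (GCGC, any base, TGCGC) was in 11.9% and 5.78%, and the E-box CACGTG bound by MYC and TFEB was in 9.52% and 7.26%. No promoter of a member had matches of different motifs that shared bases. The ETS core was found both in members that rose and in members that fell. Of its 29 genes, 8 rose and 9 fell under high WESF, and 10 rose and 1 fell under high EESF. Of all 68 members with a promoter, 20 rose and 22 fell under high WESF, and 24 rose and 4 fell under high EESF. The split of the ETS genes was thus near that of these members, and its relation to the motif was not tested. The 5 stretches below cover the 150 bases before the start of members that moved, with any match in capitals, to show promoters with and without these motifs on either side. MRPL55 (chr1:228109300-228109449, minus), MRPL17 (chr11:6683341-6683490, minus) and MRPS26 (chr20:3045902-3046051, plus) rose under both extracts, and MRPL40 (chr22:19432395-19432544, plus) and MRPL1 (chr4:77862680-77862829, plus) fell under both. The capitals are an NRF1 match in MRPL17 and ETS matches in MRPS26, on the reverse strand, and in MRPL40.
MRPL55: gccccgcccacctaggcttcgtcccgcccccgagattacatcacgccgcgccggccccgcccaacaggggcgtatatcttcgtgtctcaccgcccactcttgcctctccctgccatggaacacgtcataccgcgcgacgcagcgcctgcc
MRPL17: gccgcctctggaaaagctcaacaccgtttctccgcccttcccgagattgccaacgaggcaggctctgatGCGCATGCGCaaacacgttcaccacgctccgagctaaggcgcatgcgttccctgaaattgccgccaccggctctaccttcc
MRPS26: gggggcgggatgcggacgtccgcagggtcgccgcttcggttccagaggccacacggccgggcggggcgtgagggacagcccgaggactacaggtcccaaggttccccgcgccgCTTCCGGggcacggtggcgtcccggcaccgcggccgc
MRPL40: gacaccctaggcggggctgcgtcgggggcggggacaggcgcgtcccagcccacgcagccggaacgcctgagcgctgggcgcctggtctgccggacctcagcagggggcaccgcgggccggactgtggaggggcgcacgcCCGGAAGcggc
MRPL1: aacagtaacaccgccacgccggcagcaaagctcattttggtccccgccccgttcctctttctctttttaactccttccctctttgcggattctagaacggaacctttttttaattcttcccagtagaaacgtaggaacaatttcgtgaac

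A match describes the letters only and is no evidence of binding, and no match says only that these letters are absent from the window. MRPL2, MRPL10, MRPL13, MRPL15, MRPL21, MRPL23, MRPL35, MRPS28 and MRPS36 had no entry.

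Factors named by these motifs were read from a list of 14 regulators of mitochondrial biogenesis and stress. Under high WESF 7 rose and 4 fell, beside 34.3% and 34.6% of all genes, and under high EESF 7 rose and 5 fell, beside 29.3% and 28.7%. PPARGC1A, the coactivator that drives mitochondrial biogenesis, fell from 2.79 ± 0.08 to 0.33 ± 0.21 CPM under WESF and from 2.44 ± 0.34 to 0.33 ± 0.12 under EESF, log2 changes of -3.12 and -2.89. MYC (0.77 and 0.37) and ATF4 (0.74 and 0.52), the main factor of the integrated stress response, rose under both. In the same list DDIT3 also rose under both (0.62 and 0.76), and ATF5 fell under high WESF (-0.95). MAX, the partner of MYC (-0.55 and -0.39), and TFEB, a regulator of lysosomal genes (-0.96 and -0.36), fell under both. YY1 rose (0.27 and 0.19), NRF1 was not called (0.11 and 0.08), and GABPA was not called under WESF (0.01) and fell under EESF (-0.37).

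Genes that build the mitoribosome included larger changes than those of the proteins above. Of 30 assembly factors, 13 rose and 6 fell under high WESF (median 0.10) and 16 rose and 2 fell under high EESF (median 0.20). Over all genes tested, 34.3% rose and 34.6% fell under high WESF and 29.3% rose and 28.7% fell under high EESF, and the counts of these lists stand beside those shares. TFB1M, which methylates the small ribosomal RNA, rose from 8.31 ± 0.36 to 22 ± 0.41 CPM under WESF and from 8.46 ± 1.68 to 18.7 ± 1.98 under EESF (log2 changes 1.40 and 1.15). MPV17L2 rose by 0.80 and 0.89. The GTPase MTG1 fell by 0.81 and 0.23 and the ribonuclease YBEY by 0.64 and 0.33. Among 21 genes for mitochondrial DNA and RNA synthesis, 12 rose and 6 fell under WESF, the falls near the share of all genes, and 11 and 4 under EESF, with rises of the DNA polymerase POLG (1.40 and 1.10) and the RNA polymerase POLRMT (1.05 and 0.86) and falls of TFAM (-0.41 and -0.39) and HSD17B10 (-0.73 and -0.41). All of these lists were set with earlier results of these data known, and their counts are descriptions.

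Of 19 translation factors, 2 rose and 8 fell under WESF, beside 34.3% and 34.6% of all genes, and 5 rose and 4 fell under EESF, near the 29.3% and 28.7% of all genes. GFM2, which recycles mitoribosomes, rose (0.40 and 0.31), and METAP1D, which removes the first methionine, fell (-1.18 and -0.68). Of 17 mitochondrial aminoacyl-tRNA synthetases, 6 rose and 6 fell under WESF and 6 and 4 under EESF, again near those shares, with TARS2 (0.83 and 0.68) and MARS2 (0.58 and 0.66) higher and WARS2 (-0.48 and -0.72) and CARS2 (-0.59 and -0.25) lower. Of 10 mitochondrial proteases and chaperones, 7 rose under WESF and 8 under EESF and none fell, led under WESF by the protease LONP1 (0.74 and 0.54) and the chaperone HSPA9 (0.60 and 0.28). Of the 6 mitoribosome proteins with other names, DAP3 rose under both (0.19 and 0.30), GADD45GIP1 was called lower under WESF (-0.13) and higher under EESF (0.40), and MRPS18C was not called (-0.10 and 0.10).

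The RNAs that the mitoribosome translates differed between the extracts. Of the 13 messenger RNAs encoded by mitochondrial DNA, 8 fell and none rose under high WESF (median -0.31), beside 34.6% and 34.3% of all genes, and 4 rose and 4 fell under high EESF (median -0.01), beside 29.3% and 28.7%. Falls were also called at medium WESF, in MT-ND4L (-0.27, adjusted p = 0.0384), MT-ND2 (-0.24, 0.0341), MT-CYB (-0.24, 0.0441) and MT-CO1 (-0.21, 0.0491), beside 2.20% of all genes. At medium EESF MT-ND6 (0.62), MT-ATP8 (0.29), MT-ND4 (0.25) and MT-CO3 (0.22) rose and MT-ND4L (-0.28) fell, beside 6.90% and 8.48% of all genes. The difference was called positive in 7 and negative in 0, beside 12.7% and 13.3% of all genes. MT-ND1, a subunit of complex I, fell from 6730 ± 368 to 4130 ± 471 CPM under WESF (-0.71) and from 7920 ± 594 to 7040 ± 122 under EESF (-0.17). MT-ND6 (0.58) and MT-ATP8 (0.49) rose under EESF. Their summed level was 93630 ± 1130 CPM in the vehicle of batch A and 108000 ± 1500 in that of batch B, so the vehicles differed before treatment. The WESF libraries varied more, with 103900, 90150 and 72810 CPM at the low dose and 88380, 69040 and 77160 at the high dose, so the low-dose and high-dose groups overlapped. The 2 mitochondrial ribosomal RNAs, which an mRNA library holds only in part, summed to 13740 ± 351 CPM in vehicle and 13120 ± 820, 10460 ± 625 and 11050 ± 819 under low, medium and high WESF. In batch B they summed to 15150 ± 325 in vehicle and 16040 ± 353, 15240 ± 828 and 11540 ± 320 under low, medium and high EESF. These sums were thus lower under medium and high WESF but, among the EESF groups, only under the high dose.

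The genes of the cytosolic ribosome, which makes the members' own proteins, gave the nearest comparison. Of 82 tested, 9 rose and 11 fell under WESF (median -0.02), beside 34.3% and 34.6% of all genes. Under EESF 21 rose and none fell (median 0.13), beside 29.3% and 28.7%, so the share that rose was not above that of all genes. Named rises were those of RPL3 (0.28 and 0.24) and RPL39L (0.27 and 0.47), and RPS26 fell under WESF (-0.55). The difference was called positive in 2 of them and negative in 0, beside 12.7% and 13.3% of all genes, with a median of 0.11 beside the members' 0.15.

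The summed levels of markers of other cell types differed at the high doses as well. The 5 neuronal genes summed to 158 CPM in vehicle and 80.1 under high WESF and to 161 and 104 in batch B, with TUBB3 the most abundant and RBFOX3 and STMN2 under 1 CPM. The 5 immune genes, led by PTPRC, summed to 14.1 and 4.04 CPM and to 13.7 and 4.28, with AIF1, CD14 and CX3CR1 under 1 CPM. The 5 epithelial genes, led by KRT18, summed to 139 and 64.0 CPM and to 132 and 92.6. The 11 astrocyte genes summed to 7780 and 6580 CPM and to 7940 and 7420, and the 5 fibroblast genes to 5720 and 5130 CPM and to 5690 and 5360. Higher sums were found for the 5 oligodendrocyte genes, of which MBP alone reached 1 CPM, at 7.10 and 13.3 CPM under vehicle and high WESF and 7.00 and 10.2 under vehicle and high EESF. The 5 endothelial genes, led by KDR and with CDH5, VWF and CLDN5 under 1 CPM, summed to 35.6 and 38.3 CPM and to 34.8 and 41.8. The part of these shifts in the members' changes was not tested.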

How the data were processed

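RNA was sequenced from 24 libraries (3 per group, 8 groups) with a directional MGI mRNA kit and 100 bp paired reads. The authors deposited expected counts per gene; the submitters' processing notes name FastQC 0.11.9, Trim Galore 0.6.6, STAR 2.7.9a and RSEM 1.3.3 with GRCh38. Of the deposited expected counts 10.9% were not whole numbers, and they were rounded to whole counts. Gene types and lengths came from GENCODE 44, and 56558 of 60675 table genes matched. The members, lists and tests were chosen with earlier results of these data known.

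Protein-coding genes passing filterByExpr were tested with edgeR 4.0.16 (glmQLFit, TMM, R 4.3.3, two-sided), with Benjamini-Hochberg adjustment over all genes tested. SEs were derived from the F statistic. The difference between the extracts was an interaction contrast over 12 libraries. CPM used TMM-scaled protein-coding counts, and TPM used the exon union length. Deviations used log2(CPM + 0.5). Promoters were searched in RefSeq sequences. The main test was edgeR, and DESeq2 1.42.0, the tool of the study, was an alternative. The others were DESeq2 size factors, no filter, all genes, counts thinned to 18138363 per library, a replicate block, a fit over the 4 groups of each batch together, leaving out each library, the longest transcript and added pseudogene counts. Counts were simulated from the means and dispersions of the 12 high-dose and vehicle libraries. Changes were seeded in few genes, 195 of 13117 tested for 1.5-fold in high WESF. There, 84.1% of 1.5-fold and 58.5% of 1.25-fold changes were recovered in high WESF. The difference had 74.2% and 16.2%, so small differences were often missed in the simulation. In the data 34.3% of genes rose and 34.6% fell under high WESF, so the shares recovered there may differ. Of the calls made at these sizes of change, 8.38% and 5.79% were false in high WESF and 6.37% and 13.5% in the difference. These shares were above the nominal 5%, but each came from a single run, with as few as 37 calls, so an excess over 5% is not shown. For 2-fold changes, 93.8% were recovered in high WESF and 83.8% in the difference, with 4.21% and 6.21% of calls false. Replicates differed beyond sampling noise (chi-square per degree of freedom 2.01 to 15.1), so none were merged.

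Named genes were, per subunit, up to 4 called rises and falls at each high dose, all DEGs, up to 3 at lower doses, up to 10 differences, 14 members fixed for their role, the 5 highest and lowest levels, and up to 4 rises and falls per list, from which examples are given; other members named were chosen after their values were seen.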

Additional observations from a re-analysis of the deposited data

Results flagged for a closer look

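The change under high EESF minus the change under high WESF (log2, edgeR, adjusted over all genes tested) passed the test in 20 members, and extract and batch cannot be told apart in it. EESF was above WESF for MRPL1 (0.63), MRPL57 (0.63), MRPL23 (0.62), MRPS11 (0.48), MRPL20 (0.47), MRPL38 (0.42), MRPS33 (0.40), MRPL16 (0.39), MRPS18A (0.39), MRPL11 (0.35), MRPL41 (0.35), MRPL12 (0.33), MRPL4 (0.33), MRPS7 (0.32), MRPL22 (0.31), MRPL24 (0.31), MRPL15 (0.25) and MRPS18B (0.22). It was below WESF for MRPL19 (-0.25) and MRPL2 (-0.22). The adjusted p-values ran from 0.000766 for MRPL20 to 0.0447 for MRPL2.

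At the medium dose MRPL1 lay on opposite sides of the vehicle in the 2 extracts. Its CPM was 15.9, 15.3 and 16.3 under medium WESF, each below the vehicle mean of batch A (17.9), and 21.5, 19.3 and 20.9 under medium EESF, each above that of batch B (17.6). The mean log2 deviations differed by 0.38, and this difference was not tested. In edgeR the medium WESF change of MRPL1 was not called (-0.18, adjusted p = 0.123). Its medium EESF call (0.23) was lost in 9 of 14 alternative settings.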

How the results depend on the processing

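Of 264 alternative counts of called members, 232 were within 1.5 times the value reported and 32 were not. Both high-dose counts of rises, the falls under high WESF and the positive differences were among the former: leaving out 1 library gave 17 to 26 rises and 21 to 28 falls for high WESF, 23 to 33 rises for high EESF and 12 to 26 positive differences, and the other alternatives gave 21 to 22, 22 to 27, 25 to 28 and 12 to 18. The 4 falls under high EESF were 2 to 4 with 1 library left out. The 1 rise under medium WESF was 0 with all genes tested, with thinned counts and with the replicate block, and 0 to 7 with 1 library left out. The 6 rises under medium EESF were 1 to 10, and the 0 rises under low EESF 0 to 8, with 1 library left out. The 2 negative differences were 1 with no filter, 1 with thinned counts and 0 to 2 with 1 library left out. Of 264 alternative medians, 243 counted as unchanged and 21 as moved. The cause of these shifts was not tested.

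Replicate numbers are shared between groups. Over all genes tested, the deviations of same-numbered libraries had r from -0.08 to 0.13 over 27 pairs, highest for replicate 1 of the vehicle groups. The members did deviate alike in the same-numbered vehicle libraries (medians 0.06 and 0.08 in replicate 1, -0.07 in replicate 3 of either batch). No label gives the numbers a shared source, so they were not taken as pairs. With the replicate block, low EESF had 3 rises against 0, the negative differences were 0 against 2, the positive ones 12 against 18, and the vehicles had 1 fall against 0.

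With the longest transcript as the length, the 10 levels named for being highest or lowest each moved by more than 1 SD. Of 882 alternative values of named genes, 814 kept direction and side of the threshold, 56 were no longer called, 2 were newly called and 10 changed sign, all in genes not called. MRPS16 under high EESF was -0.010 with thinned counts and -0.010 to 0.041 with 1 library left out. MRPL58 under high WESF was -0.002 with no filter and -0.064 to 0.061 with 1 library left out, MRPS22 under high WESF was -0.0024 to 0.072, and MRPS30 was -0.072 to 0.034 under high WESF and -0.082 to 0.013 under high EESF. MRPL23 had the lowest mean count of the members (130.8), at 3.43 to 6.52 CPM, and expected counts carry counting error beside the spread between libraries.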
